A study of Mus musculus with 1 sample.

Results

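Cycling immune cells were examined in a droplet-based single cell RNA sequencing library of mouse pancreas. The cells were chosen from their own counts. Barcodes with over 800 but under 10000 UMIs (unique molecular identifiers, each marking 1 captured transcript), of which less than 15% came from mitochondrial genes, were kept. A kept barcode was called immune with at least 2 UMIs over *Ptprc*, *Cd3d*, *Cd3e*, *Cd3g*, *Cd79a* and *Cd79b* and under 10 UMIs over *Col1a1* and *Col3a1*, and cycling with at least 2 UMIs over *Mki67*, *Top2a*, *Cenpf* and *Birc5*. Of 11789 barcodes, 10129 were kept, 1579 passed the immune gate, and 144 of these passed the cycle gate. The 1340 cells of the immune gate with 0 UMIs of the 4 cycle genes served for comparison as non-cycling cells, and 95 cells with 1 such UMI stood between them.

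The study sequenced pancreata of 2-week-old *Scap* f/f mice and of mice in which *Pdx1*-Cre deletes *Scap*, which encodes the escort protein of the SREBP transcription factors. Only the *Scap* f/f library is described here; the *Scap*-deleted library was not analysed here. These mice carry the floxed allele without Cre, and pancreata of 5 to 6 mice, with males and females in equal number per the study's methods, were pooled into 1 library after collagenase digestion and dead cell removal. With 1 pooled library there was no replicate and no test, so each interval below is a 95% interval for counting error alone (exact Poisson for levels, exact binomial for shares, exact conditional binomial for ratios), and cells of the library were not treated as replicates.

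A dividing lymphocyte passes from G1 through DNA replication (S phase) and G2 into mitosis, and each step uses its own transcripts: licensing factors that load the replicative helicase, then polymerases, nucleotide enzymes and histones, then cyclin-dependent kinase 1 with its cyclins, spindle motors and kinetochore proteins. Resting lymphocytes are held out of the cycle by inhibitors and quiescence factors and enter it after antigen, cytokine or, in B cell precursors, interleukin-7 and pre-B cell receptor signals. CD3 chains form the signalling part of the T cell receptor, CD79 chains that of the B cell receptor, and *Ptprc* encodes the pan-leukocyte phosphatase CD45.

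The 144 cycling immune cells held 604270 UMIs in all, with a lowest, median and highest count of 882, 3509 and 9994 UMIs per cell and 1651 genes detected in the median cell. The 1340 non-cycling cells held 2730587 UMIs, and the median cell had 1574 UMIs from 842 genes. Cycling cells were thus the deeper group, and a gate of 2 UMIs is passed more easily by a deep cell. When the gates were applied after every cell had been thinned to 800 UMIs, the 51 cells that still passed had a median of 3192 UMIs before thinning, against 1497 for the 1077 with 0 cycle UMIs. Some shares of cells with a UMI are therefore also given after thinning. Shares without a thinned value are from full counts and carry this difference in depth. Mitochondrial UMIs made up a median of 2.62% in cycling and 2.88% in non-cycling cells. Digestive enzyme transcripts of acinar cells took 2.17% of all UMIs in cycling cells and 3.29% in non-cycling cells. Scrublet, a doublet caller, marked 3 of the 144 cycling cells (2.08%), 22 of the 1340 non-cycling cells (1.64%) and 485 of all 10129 kept barcodes (4.79%). Marked cells were kept. By contrast, of 41 barcodes that passed the cycle and immune thresholds but held 10 or more collagen UMIs, 20 (48.8%) were marked, and these 41 are outside the gate.

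The label was checked against its markers, which are part of the rule and so describe the cells rather than test them. *Top2a*, which untangles replicated DNA, had 711 UMIs and was present in 128 of the 144 cells (88.9%). *Birc5* (survivin) was present in 105 cells, *Mki67* (Ki-67) in 84 and *Cenpf*, a kinetochore protein, in 62. The 4 genes together gave 2 UMIs in the lowest cell, 6 in the median cell and 47 in the highest. *Ptprc* was present in 123 cells (85.4%, 78.6 to 90.7), against 85.3% of non-cycling cells. *Cd3d* was present in 86 cells (59.7%), *Cd3g* in 80, *Cd3e* in 74, *Cd79a* in 39 and *Cd79b* in 34. *Trac*, the T cell receptor alpha constant gene, is not in the rule and was present in 58.3% of the cycling and 38.6% of the non-cycling cells, from full counts.

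The values on both sides of the cycle threshold are given once. In cells with 0, 1, 2 and 3 UMIs of the 4 rule genes, the other mitotic and spindle genes summed to 550, 963, 2993 and 5401 CPM (UMIs of the genes per 1000000 UMIs of the cells). The sums for the G1/S and DNA synthesis genes were 966, 1697, 3602 and 2985 CPM, and those for the replication histones 171, 412, 1252 and 1990 CPM. The 24 cells just inside the threshold were therefore above the 95 cells just outside it on all 3 sums. In the 45 cells with 10 or more rule UMIs the mitotic sum reached 11198 CPM, while the G1/S and synthesis sum, at 4663 CPM, was below the 6681 CPM of the 56 cells with 4 to 9.

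**Figure D1:**
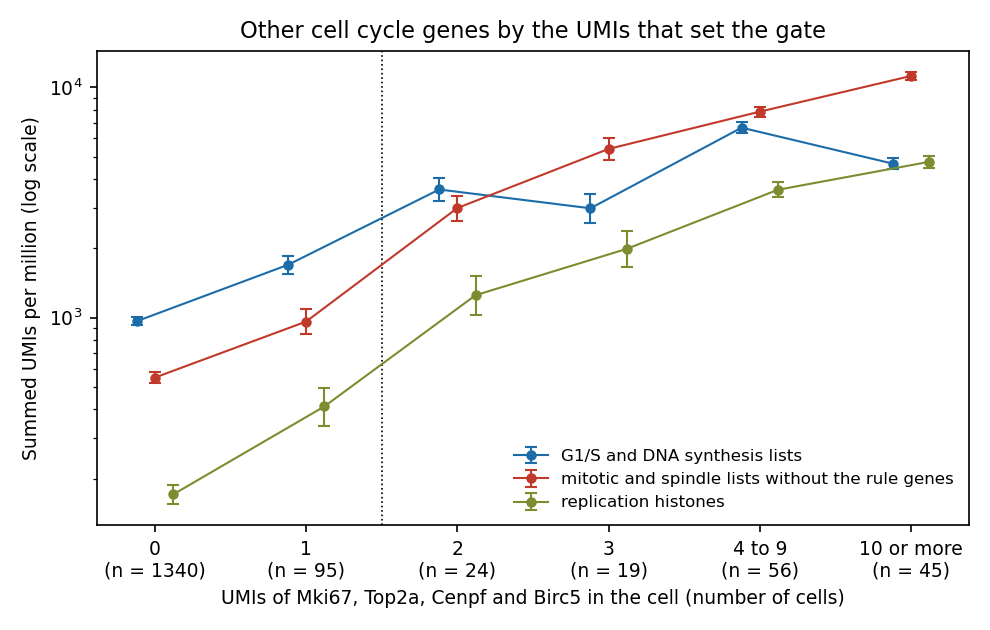
Summed CPM (log axis) of 3 groups of cell cycle genes outside the rule, against the number of UMIs of the 4 rule genes in the cell, with the number of cells under each point and exact Poisson 95% intervals for counting error. The dotted line marks the gate; the mitotic sum goes from 963 CPM at 1 rule UMI to 2993 CPM at 2, and to 11198 CPM at 10 or more.

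Cycling cells made up 9.12% of the immune gate (144 of 1579, 7.75 to 10.6). In cells with Cd3 UMIs and no Cd79 UMI (Cd3 cells below) the share was 9.60% (89 of 927, 7.78 to 11.7), and in cells with Cd79 UMIs and no Cd3 UMI (Cd79 cells) it was 7.93% (33 of 416, 5.52 to 10.96). The intervals of the T and B lineages overlapped. The other members were 9 cells with UMIs of both complexes and 13 with neither. Cd3 cells thus made up 61.8% of the cycling cells (53.3 to 69.8) and 58.0% of the non-cycling cells, and Cd79 cells 22.9% (16.3 to 30.7) and 27.4%. Cells with both made up 6.25% and 5.37%; a cell with both can be a doublet, and 6 of the cycling cells (4.17%, 1.54 to 8.85) and 26 of the non-cycling cells (1.94%, 1.27 to 2.83) had at least 2 UMIs of each complex, with overlapping intervals. In other gates of the library, the same cycle gate held 4.33% of 6277 collagen-expressing cells without immune UMIs (272 cells, median of the 6277 cells 2704 UMIs). It held 6.92% of 390 barcodes in which globin took at least 50% of the UMIs, and 8.49% of 424 barcodes in which digestive enzymes took at least 40%. The globin and enzyme gates did not exclude cells of the immune gate. After thinning to 800 UMIs, 9.37% of the immune gate and 4.35% of the collagen-expressing cells had at least 1 UMI of the 4 cycle genes. The thinned shares were 6.92% in the globin gate and 7.31% in the enzyme gate.

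Within the lineages the share was set out by subset. Among Cd3 cells, 38 of 302 with a *Cd8a* or *Cd8b1* UMI and no *Cd4* UMI (12.6%, 9.06 to 16.9) and 14 of 113 with a *Cd4* UMI and none of *Cd8a* or *Cd8b1* (12.4%, 6.94 to 19.9) were cycling; these genes encode the co-receptors of cytotoxic and helper T cells. *Foxp3*, the master regulator of regulatory T cells, was detected in 21 Cd3 cells, and 7 of them were cycling (33.3%, 14.6 to 57.0). Among Cd79 cells, 8 of 13 with a UMI of *Igll1* or *Vpreb1*, the surrogate light chain genes of pre-B cells, were cycling (61.5%, 31.6 to 86.1). By comparison, 25 of 231 with *Ighm* but no *Ighd* (10.8%, 7.13 to 15.6), 10 of 295 with *Bank1* (3.39%, 1.64 to 6.15) and 4 of 146 with *Ighd*, which marks mature naive B cells (2.74%, 0.751 to 6.87), were cycling. The intervals of the *Igll1* or *Vpreb1* cells and of the *Ighd* cells did not overlap, also after thinning, when the shares with a cycle UMI were 38.5% (13.9 to 68.4) and 4.11% (1.52 to 8.73). These subsets were set by detection of rare transcripts, so a deeper cell was more likely to enter them. The median depth was 2975 UMIs in the *Igll1* or *Vpreb1* cells and 1542 in the *Ighd* cells; the part of this difference in the shares was not tested beyond the thinned values. Of collagen-expressing cells without immune UMIs, 0.0637% had a *Foxp3* UMI, 0.0956% *Igll1*, 0.430% *Vpreb1* and 0.143% *Ighd*. These cells were chosen to hold 0 UMIs of the immune rule genes, so the shares can understate the background of free RNA.

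**Figure D2:**
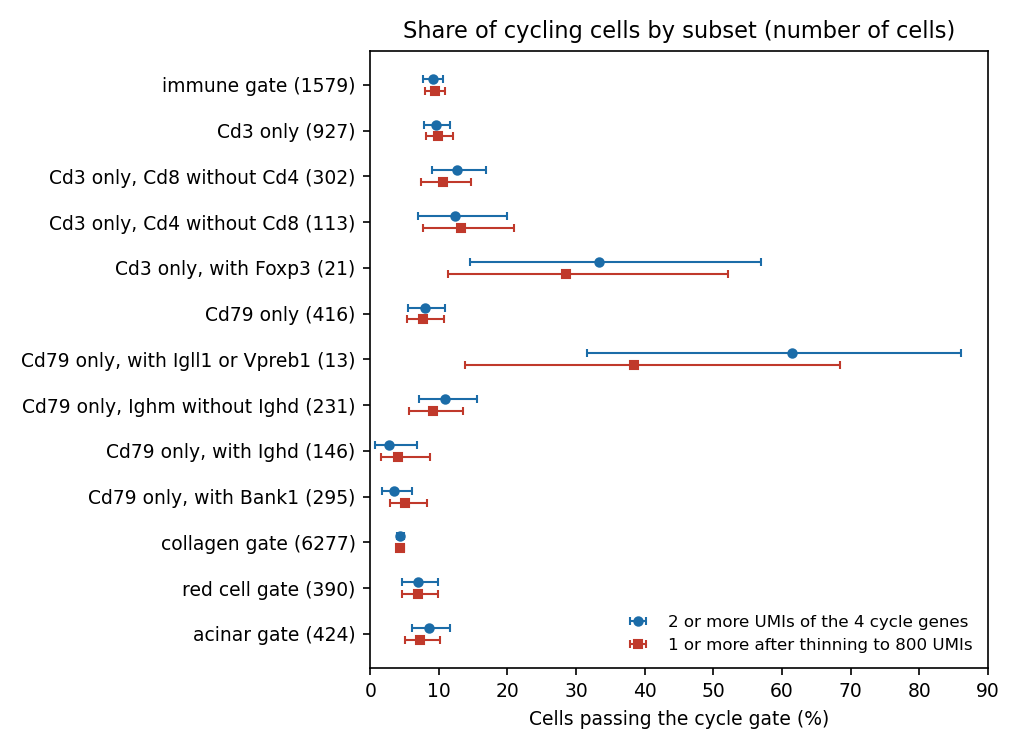
Share of cells (%) passing the cycle gate in subsets of the immune gate and in 3 other gates, with the number of cells in brackets. Circles use full counts and squares count cells with at least 1 cycle UMI after thinning to 800 UMIs; bars are exact binomial 95% intervals for counting error. The share is 61.5% in Cd79 cells with *Igll1* or *Vpreb1* and 2.74% in those with *Ighd*.

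Levels were compared as CPM over all cells of a group. Ratios are cycling over non-cycling, and log2 ratios were taken after adding 10 CPM to both levels, which understates the ratio of low genes. Of 8956 genes with at least 30 UMIs over both groups, 4.39% were at least 2-fold higher in cycling cells and 2.91% at least 2-fold lower, with a median log2 ratio of -0.07. Because the cycle gate chose the cells, the cycle genes below had to be higher, and their values and counts are given as a description.

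Licensing and G1/S genes had 17 of 20 measured members at least 2-fold higher and none 2-fold lower, with a median log2 ratio of 1.72. *Mcm7*, a subunit of the replicative helicase, was at 281 CPM in cycling and 39.2 CPM in non-cycling cells (7.18-fold, 5.60 to 9.23). Geminin (*Gmnn*), the licensing inhibitor that accumulates in S phase, was at 151 and 19.4 CPM (7.76-fold). *Ccne2*, the G1/S cyclin E2, was present in 13.2% of cycling and 0.522% of non-cycling cells. *Cdt1*, the licensing factor that is degraded in S phase, was at 43.0 and 28.2 CPM, and its interval of 0.939 to 2.41-fold included no difference.

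DNA synthesis genes were higher in 28 of 30 measured members, with a median log2 ratio of 1.91. *Rrm2*, the regulated subunit of ribonucleotide reductase, was at 136 and 4.76 CPM (28.5-fold, 15.8 to 55.8). *Dut*, which clears dUTP, was present in 66.7% of cycling and 12.8% of non-cycling cells, and in 23.6% and 5.30% after thinning. *Uhrf1*, which carries DNA methylation onto the new strand, was at 161 and 15.7 CPM. *Pclaf*, the PCNA clamp-associated factor and 1 of the 15 genes with the largest ratios, was at 629 and 9.16 CPM (68.7-fold, 45.8 to 107).

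Replication histone genes were higher in 12 of 13 measured members, and their summed level was 21.0-fold higher (19.0 to 23.3). *Hist1h2ap* had 1054 UMIs in cycling and 69 in non-cycling cells (69.0-fold, 54.1 to 89.4) and was found in 77.8% and 4.48% of cells. The linker histone gene *Hist1h1b* was 118-fold higher (63.4 to 250) and *Hist1h2ae* 48.5-fold. *Hist1h1c*, a linker histone gene that is also expressed outside S phase, was at 67.9 and 32.96 CPM. Most histone messages lack a poly(A) tail and are captured incompletely by poly(A) priming, and close histone copies can share reads, so these levels are less certain than those of single-copy genes.

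Mitotic kinase and anaphase-promoting complex (APC/C) genes were higher in 20 of 21 measured members, with a median log2 ratio of 2.93. *Ube2c*, the ubiquitin-conjugating enzyme that works with the APC/C, had 357 UMIs in cycling and 28 in non-cycling cells, or 591 and 10.3 CPM (57.6-fold, 39.2 to 88.0). *Cdk1*, the kinase that drives entry into mitosis, was at 202 and 4.76 CPM (42.4-fold, 23.9 to 81.9). Its mitotic partner cyclin B2 (*Ccnb2*) was at 194 and 4.39 CPM (44.1-fold) and cyclin A2 (*Ccna2*) at 151 and 1.46 CPM (103-fold, 38.8 to 385). *Pttg1*, which encodes securin, was the exception on this list, at 21.5 and 31.5 CPM (0.683-fold, 0.350 to 1.23).

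The spindle, kinetochore and cytokinesis list was higher in all 37 measured members and summed to 4687 and 233 CPM (20.1-fold, 18.4 to 21.9). The microtubule-bundling protein gene *Nusap1* was at 402 and 4.76 CPM (84.5-fold, 48.5 to 161). The spindle kinesins *Kif15* and *Kif11* were at 194 and 215 CPM in cycling cells and at 1.83 and 4.76 CPM in non-cycling cells. *Tpx2*, which activates Aurora A on the spindle, was 87.4-fold higher (38.9 to 243). *Diaph3*, a formin that nucleates actin and 1 of the 15 genes with the largest ratios, was 27.6-fold higher (18.6 to 42.4).

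Chromatin and nuclear growth genes were higher in 24 of 25 measured members. *Hmgb2*, a DNA-bending protein, was found in 99.3% of cycling and 32.7% of non-cycling cells and, at 800 UMIs per cell, in 88.9% and 16.9%. The microtubule-destabilising protein gene *Stmn1* was found in 89.6% and 8.66% of cells and was at 950 and 59.3 CPM. *Ptma* (prothymosin alpha) was already at 1886 CPM in non-cycling cells and at 5292 CPM in cycling cells. In collagen-expressing cells, 10.3% had an *Hmgb2* UMI and 5.26% a *Stmn1* UMI after thinning. The *Stmn1* shares of the immune cells above are from full counts, so they are not at like depth.

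The promoters of *Ube2c*, *Cdk1* and *Ccnb2* are shown because mitotic genes are known for 2 promoter elements, CCAAT boxes, bound by NF-Y, and the CHR (cell cycle genes homology region, TTTGAA), bound by the DREAM and MuvB complexes. Each runs 5′ to 3′ on the gene's strand from 250 bases before the RefSeq start (build GRCm38.p6) to 30 bases after it, and capitals mark CCAAT or TTTGAA on either strand (reverse complements ATTGG and TTCAAA).
Ube2c (chr2:164769679-164769958, plus strand): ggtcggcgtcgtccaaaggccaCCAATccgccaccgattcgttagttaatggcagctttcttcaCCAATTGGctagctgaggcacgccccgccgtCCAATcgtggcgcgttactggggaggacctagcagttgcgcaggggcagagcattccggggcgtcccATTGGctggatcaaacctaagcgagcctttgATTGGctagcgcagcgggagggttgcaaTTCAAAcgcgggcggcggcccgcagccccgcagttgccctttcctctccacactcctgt
Cdk1 (chr10:69352883-69353162, minus strand): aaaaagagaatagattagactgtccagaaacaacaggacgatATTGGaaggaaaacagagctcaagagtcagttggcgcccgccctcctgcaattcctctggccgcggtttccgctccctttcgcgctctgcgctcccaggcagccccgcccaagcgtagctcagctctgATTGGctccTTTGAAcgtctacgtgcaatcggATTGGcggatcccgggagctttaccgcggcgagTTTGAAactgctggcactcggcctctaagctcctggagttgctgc
Ccnb2 (chr9:70421525-70421804, minus strand): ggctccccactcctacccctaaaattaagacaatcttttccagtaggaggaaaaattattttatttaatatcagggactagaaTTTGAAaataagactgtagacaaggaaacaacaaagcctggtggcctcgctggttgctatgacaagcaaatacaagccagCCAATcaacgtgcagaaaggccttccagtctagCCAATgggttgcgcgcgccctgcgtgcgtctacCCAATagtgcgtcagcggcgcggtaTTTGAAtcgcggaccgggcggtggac

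The *Ube2c* window held 6 CCAAT matches, 2 of which overlap on opposite strands in CCAATTGG, and 1 TTTGAA match; the *Cdk1* and *Ccnb2* windows each held 3 CCAAT and 2 TTTGAA matches. Of the 23 mitotic kinase and APC/C genes with a promoter in the RefSeq table, 78.3% had CCAAT and 43.5% TTTGAA in such a window, and 43.5% had both. Of 32 spindle and kinetochore genes, 68.8% had CCAAT, 65.6% TTTGAA and 53.1% both. Over all 27025 genes of the table the shares were 39.7%, 19.5% and 7.37%, and over the 7123 measured genes with a promoter 42.0%, 14.1% and 5.56%. The elements were also found in other lists: CCAAT was in 78.9% and TTTGAA in 52.6% of 19 chromatin and nuclear growth genes, in 64.7% and 35.3% of 17 licensing genes and in 53.8% and 11.5% of 26 DNA synthesis genes, and 4 of 4 MHC class II genes had CCAAT. The E2F-type letters TTTGGCGC or TTTCCCGC, searched on both strands, had 0 matches in the printed windows and were in 35.3% of the licensing genes, in 1.68% of all genes and in 3.66% of the measured genes. None of the 20 histone genes had a promoter in the table. A match describes the letters of the window and is not evidence of binding.

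In each of the 144 cells, the UMIs of the licensing and DNA synthesis lists were set against those of the mitotic and spindle lists outside the rule. The S lists gave 0, 15 and 93 UMIs in the lowest, median and highest cell and the mitotic lists 0, 28 and 128. In 48 cells (33.3%, 25.7 to 41.7) the S lists had more UMIs, in 92 cells (63.9%) the mitotic lists had more, and 4 were equal. Among Cd3 cells 33 of 89 (37.1%, 27.1 to 48.0) had more S UMIs, and among Cd79 cells 9 of 33 (27.3%, 13.3 to 45.5), with overlapping intervals. These are counts of transcripts from lists of different size and not calls of phase. The 4 rule genes are themselves best known from G2 and mitosis.

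**Figure D3:**
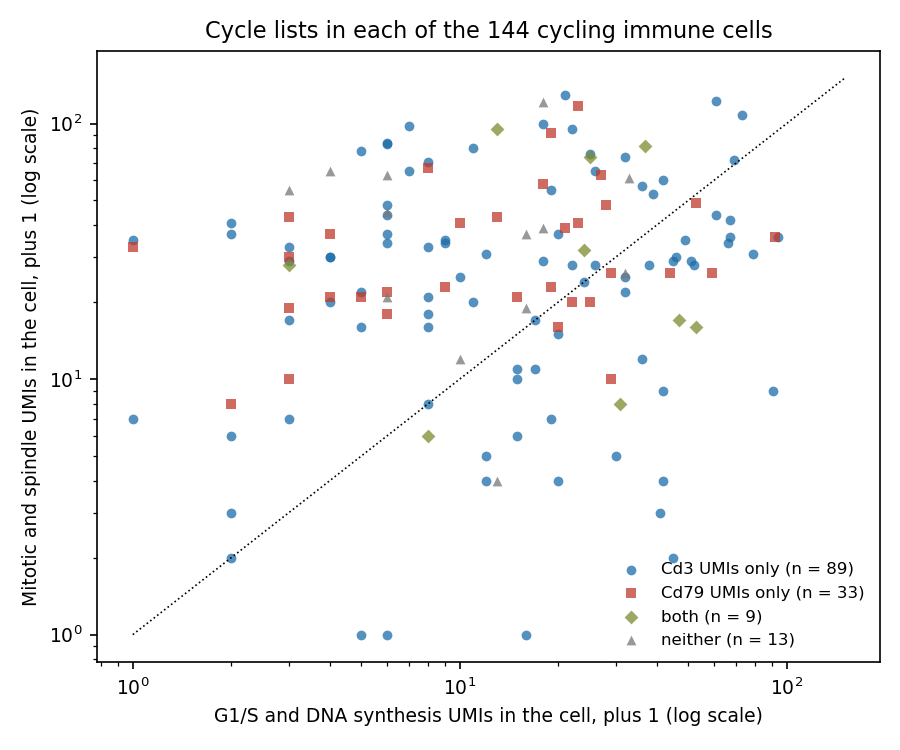
UMIs of the licensing and DNA synthesis lists (x) against UMIs of the mitotic and spindle lists outside the rule (y), each plus 1 on log axes, in each of the 144 cycling immune cells; colour and shape give the Cd3 and Cd79 class. Above the dotted line of equality lie 92 cells and below it 48.

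D cyclins and cycle brakes had a lower summed level, 3975 CPM in cycling and 6569 CPM in non-cycling cells (0.605-fold, 0.580 to 0.631), with 3 of 25 measured members at least 2-fold higher and 2 at least 2-fold lower. *Btg1*, an antiproliferative factor of resting lymphocytes, was at 778 and 2208 CPM (0.352-fold, 0.320 to 0.387). After thinning it was found in 41.7% of cycling and 75.7% of non-cycling cells. *Pik3ip1*, an inhibitor of PI3 kinase in resting T cells, was at 9.93 and 32.6 CPM. *Cdkn1b* (p27), the inhibitor that holds resting lymphocytes in G1, was at 26.5 and 61.2 CPM (0.433-fold, 0.242 to 0.724), just short of 2-fold on the log2 scale with its pseudocount (-0.96). Higher members were *Cdkn2c* (p18) at 43.0 and 4.39 CPM, the pocket protein gene *Rbl1* at 86.1 and 24.2 CPM, and *Cdk2* at 46.3 and 17.6 CPM. *Ccnd2*, the cyclin D2 gene, was at 313 and 512 CPM.

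Growth and metabolism genes differed less. Of 22 MYC target and nucleolar genes none passed 2-fold in either direction, while their summed level was 1.33-fold higher (1.28 to 1.38): *Npm1* (nucleophosmin) was at 1200 and 796 CPM, and *Myc* itself at 66.2 and 81.7 CPM (0.811-fold, 0.564 to 1.14). Glycolysis genes were 1.67-fold higher in sum (1.57 to 1.78), with *Gapdh* (2.38-fold, 2.15 to 2.64) and *Pgk1* (2.25-fold, 1.69 to 2.96) past 2-fold among 13. In purine and pyrimidine synthesis 0 of 17 genes passed 2-fold; *Impdh2*, the rate-limiting enzyme of guanine nucleotide synthesis, was at 104 and 48.7 CPM. The SCAP and SREBP pathway, the target of the study's deletion, summed to 784 and 810 CPM (0.968-fold), and the interval of 0.875 to 1.07 included no difference. None of its 26 measured members was 2-fold higher and 1 was 2-fold lower, the cholesterol exporter gene *Abca1*, at 13.2 and 44.7 CPM. *Scap* had 13 UMIs in cycling and 92 in non-cycling cells (0.639-fold, 0.328 to 1.15). *Sqle*, the squalene oxidation enzyme, had 11 and 18 UMIs, too few for the filter.

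**Figure D4:**
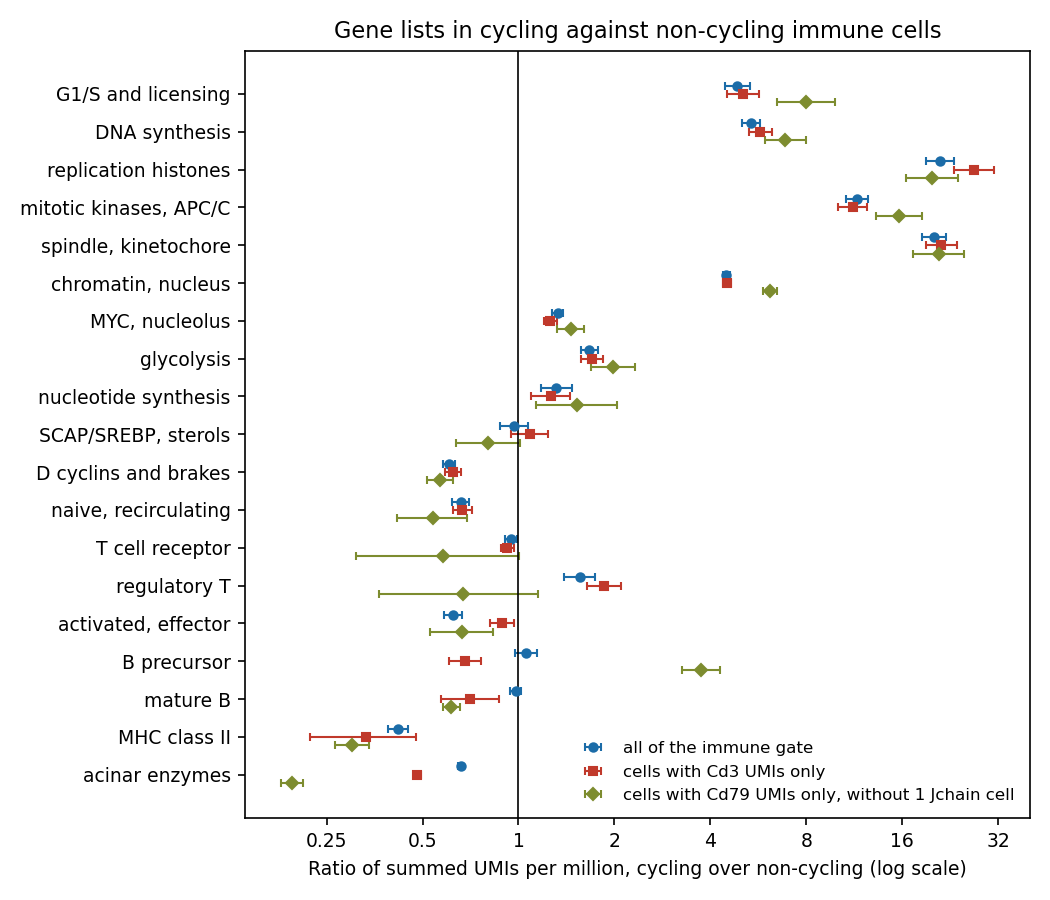
Ratio of summed CPM, cycling over non-cycling (log axis), for 19 gene lists in the whole immune gate, in Cd3 cells and in Cd79 cells without the 1 *Jchain*-rich cell, with exact conditional binomial 95% intervals for counting error. Cycle lists lie between 4.49 and 21.0 in the immune gate; MYC, glycolysis and nucleotide lists lie between 1.32 and 1.67, and the SCAP/SREBP list is at 0.968.

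Within the Cd3 cells, 89 cycling cells (362578 UMIs) were compared with 777 non-cycling cells (1582288 UMIs). Of 6882 genes, 4.61% were at least 2-fold higher and 3.4% at least 2-fold lower. T cell receptor and co-receptor signalling genes had 0 of 16 members past 2-fold in either direction, and the list summed to 5786 and 6272 CPM (0.923-fold, 0.880 to 0.967). Genes of naive, recirculating T cells were lower in sum (0.667-fold, 0.623 to 0.715, and 0.658-fold over the whole immune gate), with 1 of 9 past 2-fold. That gene was *Dapl1*, at 49.6 and 116 CPM. The homing receptor gene *Ccr7* was at 149 and 273 CPM, the transcription factor gene *Lef1* at 621 and 993 CPM and the interleukin-7 receptor gene *Il7r* at 157 and 266 CPM.

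Regulatory T cell genes were higher in sum in the cycling Cd3 cells (1.86-fold, 1.64 to 2.10), with 2 of 6 measured members past 2-fold. *Il2ra*, the high-affinity interleukin-2 receptor chain, was at 110 and 27.8 CPM (3.97-fold, 2.52 to 6.23), and *Capg* at 74.5 and 25.9 CPM. *Ctla4*, the inhibitory receptor, was at 201 and 96.7 CPM (2.08-fold, 1.55 to 2.77). *Foxp3* had 12 UMIs in 7 cycling cells and 17 UMIs in 13 non-cycling cells. Without the *Foxp3* cells, which were chosen after their values were seen, *Il2ra* was at 27.8 and 23.8 CPM (1.17-fold, 0.496 to 2.47), *Ctla4* at 145 and 90.6 CPM (1.60-fold, 1.13 to 2.24) and the list at 1.30-fold (1.10 to 1.52). *Ikzf2* (Helios) was found in 47.2% of the 89 cycling and 171 of the 777 non-cycling Cd3 cells, and in 25.8% and 14.3% after thinning. Without the *Foxp3* cells it was at 346 and 282 CPM, and its interval included no difference (1.23-fold, 0.987 to 1.51).

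Among the activated and effector genes of the cycling Cd3 cells, 1 of 21 was past 2-fold higher and 4 past 2-fold lower. The higher gene was *Il2ra*, which is on both lists. *Ccl5*, the chemokine of cytotoxic and memory T cells, was at 79.98 and 413 CPM (0.194-fold, 0.129 to 0.281). The granule protease gene *Gzma* (2 and 49 UMIs), the integrin gene *Itgae* (4 and 55 UMIs) and the chemokine receptor gene *Cxcr6* (7 and 77 UMIs) were the other members past 2-fold lower. For the co-receptors the intervals included no difference: *Cd8b1* was at 290 and 295 CPM (0.983-fold, 0.788 to 1.22) and *Cd4* at 49.6 and 73.9 CPM (0.671-fold, 0.385 to 1.11). Cd8 UMIs without *Cd4* were found in 38 of the 89 cycling cells (42.7%) and *Cd4* UMIs without Cd8 in 14 (15.7%), against 31.7% and 11.3% of non-cycling cells. After thinning the shares were 25.8% and 2.25%, against 21.0% and 5.92%. A *Cd4* and a Cd8 UMI occurred together in 1 cycling cell, and the thymocyte genes *Ptcra*, *Rag1* and *Dntt* had 1, 1 and 5 UMIs over all 144 cycling cells.

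Digestive enzyme UMIs also differed between the groups of Cd3 cells, and 8 of 13 acinar genes were at least 2-fold lower in the cycling cells (0.482-fold in sum, 0.469 to 0.495). A single cycling Cd3 cell held 48.2% of these UMIs, and without it the list was 0.255-fold (0.246 to 0.265). The median share of enzyme UMIs per cell was 0.573% in cycling and 0.883% in non-cycling Cd3 cells, and 3 of 89 and 48 of 777 cells were above 10%. The part of this background in the differences above was not tested. MHC class II genes, which T cells of mice make little of, were at 85.5 and 258 CPM in the Cd3 cells.

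Within the Cd79 cells, 33 cycling cells were compared with 367 non-cycling cells (615456 UMIs). A single cycling cell carried 194 *Jchain* UMIs, all *Jchain* UMIs of the 144 cycling cells, with 991 *Igkc* and 348 *Ighm* UMIs among its 7529 UMIs. *Jchain* encodes the chain that joins IgM and IgA polymers in antibody-secreting cells. With it *Igkc* was 1.36 higher on the log2 scale in cycling Cd79 cells, and without it 1.26 lower (1678 and 4033 CPM), so the levels and ratios of Cd79 cells below leave this cell out, while shares of cells, enzyme shares per cell and the plot of B lineage genes keep all 33. With it, 7.79% of 3914 genes were at least 2-fold higher and 17.5% at least 2-fold lower. Of 3884 genes without it, 7.88% were at least 2-fold higher and 17.1% at least 2-fold lower.

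B cell precursor genes were higher and mature B cell genes lower in the cycling Cd79 cells. Of 12 listed precursor genes 8 were measured, and all 8 were at least 2-fold higher, with a summed ratio of 3.73 (3.26 to 4.27). *Igll1* had 33 UMIs in 8 cycling cells and 10 UMIs in 4 non-cycling cells (315 and 16.2 CPM). *Vpreb1* had 22 and 8 UMIs. *Vpreb3*, an immunoglobulin assembly protein of immature B cells, was at 1135 and 369 CPM (3.08-fold, 2.44 to 3.86), and *Cd24a*, the heat-stable antigen of immature lymphocytes, at 1039 and 281 CPM (3.70-fold, 2.88 to 4.73). *Il7r*, lower in cycling Cd3 cells, was at 191 and 34.1 CPM in the Cd79 cells (5.59-fold, 2.87 to 10.8). The recombinase genes were barely detected: *Rag1* and *Rag2* had 1 and 2 UMIs over all cycling cells.

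Of 18 mature B cell genes, 11 were at least 2-fold lower in the cycling Cd79 cells and none 2-fold higher (0.616-fold in sum, 0.579 to 0.655). *Bank1*, a scaffold of B cell receptor signalling, was at 210 and 1594 CPM (0.132-fold, 0.0821 to 0.200). *Ighd* had 5 and 209 UMIs (0.140-fold, 0.0451 to 0.333). *Fcer2a* (CD23) had 1 and 117 UMIs, and the complement receptor gene *Cr2* had 0 and 40. *Ms4a1* (CD20) was at 277 and 725 CPM, while *Ighm* was at 1526 and 2054 CPM (0.743-fold, 0.626 to 0.876). MHC class II genes were lower in 6 of 7 members (0.302-fold in sum, 0.266 to 0.340), and over the whole immune gate in 3 of 7 (0.419-fold, 0.389 to 0.451). *H2-Aa* was at 353 and 1709 CPM, its invariant chain *Cd74* at 1230 and 4000 CPM, and the class II transactivator *Ciita* at 0 and 56 UMIs.

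*Igll1* and *Vpreb1* are on the precursor list, and these differences were also measured without the cells that had a UMI of either gene. In the 24 cycling Cd79 cells without them and without the *Jchain* cell, the precursor list was 2.85-fold higher (2.39 to 3.39), *Cd24a* 3.55-fold higher, the mature list 0.633-fold (0.589 to 0.680), *Bank1* 0.184-fold (0.115 to 0.281) and the MHC class II list 0.413-fold (0.364 to 0.467). After thinning, *Bank1* was found in 18.2% of the 33 cycling and 62.4% of the non-cycling Cd79 cells, *Cd74* in 39.4% and 88.0%, and *Vpreb3* in 48.5% and 22.1%. Enzyme UMIs were lower in cycling Cd79 cells as well: 13 of 13 acinar genes were at least 2-fold lower (0.195-fold in sum), the median share per cell was 0.623% against 1.05%, and 0 of 33 and 23 of 367 cells were above 10%. Among other tissue lists, endothelial genes were 0.351-fold in sum (0.239 to 0.499), with 5 of 6 measured members at least 2-fold lower. The smooth muscle, mesothelial and Schwann list was 0.391-fold (0.123 to 0.954), and the fibroblast list 0.647-fold (0.482 to 0.854). Some lists of other cell types were higher in sum. The immature thymocyte list was 3.62-fold higher (2.86 to 4.55), and 109 of its 122 cycling UMIs were of *Cd24a*, which is also on the precursor list. The mast cell and duct lists had 2 and 6 UMIs, with intervals that included no difference. The neutrophil list had 35 and 11 UMIs, and 94.3% of the former lay in 1 cell. The erythroid list was 2.90-fold higher (2.71 to 3.10), with 3 of 4 measured members past 2-fold and 68.8% of its cycling UMIs in 1 cell, and was 0.928-fold (0.832 to 1.03) without that cell. A single non-cycling cell held 39.3% of the non-cycling UMIs, and without both cells the list was 1.53-fold higher (1.36 to 1.71). The macrophage and monocyte list was 1.56-fold higher (1.34 to 1.82), and 1.15-fold (0.955 to 1.37) without the cell that held 33.3% of its cycling UMIs, or 1.22-fold (1.02 to 1.46) without the richest cell of each class. The part of these markers in the B cell differences was not tested.

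**Figure D5:**
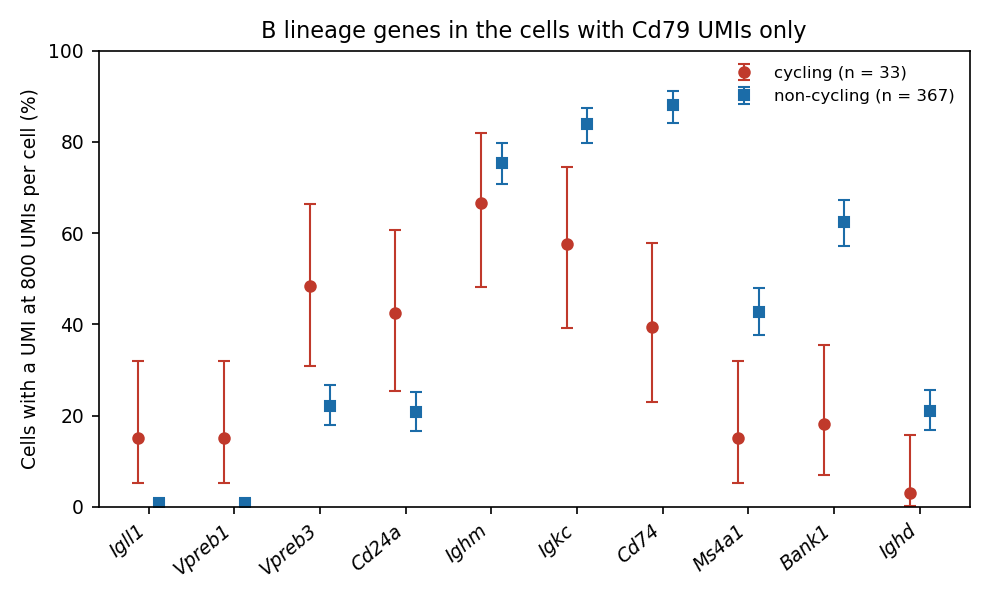
Share of Cd79 cells (%) with a UMI of 10 B lineage genes after thinning every cell to 800 UMIs, in 33 cycling and 367 non-cycling cells, with exact binomial 95% intervals for counting error. *Igll1*, *Vpreb1*, *Vpreb3* and *Cd24a* are higher in cycling cells and *Igkc*, *Cd74*, *Ms4a1*, *Bank1* and *Ighd* lower, with separate intervals; those of *Ighm* overlap.

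The 13 cycling members without Cd3 or Cd79 UMIs had entered through *Ptprc*, and they were mixed. Their other genes were looked up after the cells had been chosen. 2 of them held 607 of the 608 *Camp* UMIs of the 144 cycling cells, and *Camp* encodes a peptide of neutrophil granules. Of the 7217 UMIs of 1 of these *Camp* cells, 2271 were digestive enzymes. Another cell held 15 *Xcr1* UMIs, the chemokine receptor of cross-presenting dendritic cells, with 134 MHC class II UMIs. In another 3372 of 6888 UMIs were globin, the oxygen carrier of erythroid cells. Another 3 cells had *Gzma* UMIs (9, 6 and 1) beside 8 to 12 UMIs of *Nkg7*, *Klrd1*, *Klrk1*, *Ncr1* and *Eomes*, genes of natural killer and cytotoxic cells. Of these 3, 2 had UMIs of the T cell receptor constant genes (5 and 3). The globin-rich cell of 6888 UMIs held 9 UMIs of the same natural killer and cytotoxic genes and 0 of *Gzma*. In 2 cells *Il1rl1* and *Gata3*, genes of type 2 lymphocytes, summed to 4 and 14 UMIs, with 5 and 6 UMIs of the T cell receptor constant genes. 2 cells held 43 and 26 UMIs of the lysozyme gene *Lyz2*, with 0 and 149 MHC class II UMIs. In 1 cell of 9422 UMIs 3459 were digestive enzymes, 1464 globin and 60 MHC class II UMIs. The last cell, of 1894 UMIs, held 2 UMIs of the T cell receptor constant genes, 1 of *Igkc* or *Ighm* and 9 of digestive enzymes. The Cd79 members held such a cell too: 25 of 26 *Ly6c2* UMIs of the cycling Cd79 cells lay in 1 cell.

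Some lists over the whole immune gate had other ratios when single cells were left out. The mature B cell list was 0.982-fold, and 0.535-fold without the *Camp*-rich and *Jchain*-rich cells. It was 1.89-fold with a lower limit of 3000 UMIs and 0.348-fold with the gates applied after thinning. The neutrophil list was 5.62-fold higher in cycling cells, with 5 of 7 members past 2-fold higher, and 0.249-fold once the *Camp*-rich and *Jchain*-rich cells (3 cycling and 3 non-cycling) were left out. The antibody-secreting and germinal centre list was 2.33-fold higher, and 0.894-fold without the *Camp*-rich and *Jchain*-rich cells. Within it, *Mzb1* was at 164 and 91.6 CPM with 37 of its 99 cycling UMIs in 1 cell. *Gzma* was 3.01-fold higher with 63.5% of its UMIs in 1 cell. The erythroid list was 1.93-fold higher, and 1.24-fold (1.21 to 1.28) without the globin-rich cell that held 36.3% of its cycling UMIs. Without the richest non-cycling cell as well, it was 1.40-fold higher (1.36 to 1.44). With the gates applied after thinning the erythroid list was 0.113-fold.

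Among the 15 genes with the smallest log2 ratios over the whole gate, *Ccl5* had the smallest (-3.33), with 59 UMIs in cycling and 2933 in non-cycling cells (0.0909-fold, 0.0690 to 0.118). Its share of cells was closer: 20 of 144 and 161 of 1340 cells, and 7.64% and 8.36% after thinning. A single non-cycling cell held 361 of its UMIs, and 5 cells held 46.5%. Of the 2933 non-cycling UMIs, 654 lay in Cd3 cells and 101 in Cd79 cells, and the others in cells with both or neither. *Bank1* and *Ighd* were among the 15 smallest ratios as well (0.155- and 0.0945-fold). *Retnlg*, *Stfa2*, *Ccl24*, *Ccl21a* and *Retnla* lay in 8, 6, 4, 4 and 10 non-cycling cells, and *Fscn1*, the actin bundler of mature dendritic cells, had 157 UMIs in 31 non-cycling cells and 4 UMIs in 4 cycling cells. The macrophage and monocyte list summed to 915 and 1108 CPM (0.826-fold, 0.753 to 0.904), with 0 of 13 measured members 2-fold higher and 4 at least 2-fold lower. *Lyz2* gave 151 of 604270 UMIs in cycling and 643 of 2730587 in non-cycling cells, in 11 and 48 cells, so its level was not lower. *C1qb* had 0 UMIs in cycling and 38 in non-cycling cells, and *Mrc1* had 4 and 87. The mast cell gene *Cpa3* had 0 and 13.

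Markers of other tissue cells were found in both groups. The acinar list was the most abundant of them, at 21727 and 32929 CPM over the immune gate (0.660-fold, 0.648 to 0.672), and 0.494-fold without the cycling cell that held 26.3% of its UMIs. It was 0.349-fold with at least 4 cycle UMIs and 0.217-fold with the gates applied after thinning. The fibroblast list summed to 533 and 746 CPM, endothelial genes to 202 and 403 CPM and smooth muscle, mesothelial and Schwann genes to 44.7 and 142 CPM. *Pdgfra* had 2 and 11 UMIs, *Epcam* 3 and 21, and the median cycling cell held 2 collagen UMIs. *Pecam1*, an endothelial adhesion molecule that leukocytes also express, had a UMI in 47 cycling and 409 non-cycling cells.

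Cycling immune cells were last compared with the 272 cycling collagen-expressing cells (1259488 UMIs, median 3965 per cell), which passed the same cycle gate. Of 8106 genes, 10.5% were at least 2-fold higher in the immune cells and 23% at least 2-fold lower. Licensing genes were 1.62-fold higher in the immune cells (1.49 to 1.76), DNA synthesis genes 1.42-fold and histones 1.52-fold (1.44 to 1.61). The mitotic kinase and spindle lists were 0.890-fold (0.846 to 0.935) and 0.867-fold (0.830 to 0.906). The S lists took 37.5% of the S and mitotic UMIs in the immune cells and 26.2% in the collagen-expressing cells, and S UMIs were in excess in 33.3% of the former (25.7 to 41.7) and 21.7% of the latter (16.9 to 27.1), with overlapping intervals. *Mcm5* (101 and 37.3 CPM), *Mcm7* (281 and 118 CPM) and *Hmgb2* (4119 and 1717 CPM) were higher in immune cells, and *Cdk1* (202 and 345 CPM) and *Prc1*, which bundles the central spindle (156 and 345 CPM), lower. *Ube2c* and *Nusap1* were at 591 and 453 CPM and at 402 and 394 CPM.

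Brakes and D cyclins also differed between the classes of cycling cells. *Cdkn1c* (p57) had 4 UMIs in the cycling immune cells and 587 in the cycling collagen-expressing cells (0.0142-fold, 0.00386 to 0.0366), and *Cdkn2c* was at 43.0 and 244 CPM. *Ccnd1* was at 13.2 and 94.5 CPM, and *Ccnd2* at 313 and 106 CPM. *Btg1*, 0.352-fold in cycling over non-cycling immune cells, was 2.31-fold higher in the cycling immune cells than in the cycling collagen-expressing cells. Glycolysis genes were 2.28-fold higher in the immune cells (2.11 to 2.47). Of 11 measured members 1 was at least 2-fold lower and 6 at least 2-fold higher, among them *Gapdh*, *Ldha* (333 and 98.5 CPM) and *Eno1*. MYC target and nucleolar genes were 1.76-fold higher (1.69 to 1.85), with 10 of 22 past 2-fold. SCAP and SREBP pathway genes were 0.797-fold (0.716 to 0.887), but their median log2 ratio was -0.0061, with 1 of 22 measured members 2-fold higher and 3 at least 2-fold lower. One of the lower genes was *Hmgcs1*, an early enzyme of cholesterol synthesis, at 16.5 and 65.1 CPM.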

How the data were processed

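Droplets of 1 pooled *Scap* f/f library were sequenced, and the authors aligned reads to mm10 with Cell Ranger 7.1.0. The deposited values are raw UMI counts per gene and barcode (11789 barcodes, 32285 genes), not normalized, with at least 500 UMIs in every barcode. Rows with the same symbol were summed here. Barcodes were gated as described, with Scrublet (scanpy 1.11.5, expected rate 0.08) run on the 10129 kept cells as information only. UMIs were summed per group and divided by all UMIs of the group (CPM). Ratios carry 95% counting intervals (scipy 1.17.1). A gene was measured with at least 30 UMIs over both groups and counted past 2-fold with 10 CPM added. Thinning drew 800 UMIs per cell without replacement, with a fixed seed. The calculations were tested on simulated data. Named genes were, per list, the 4 with most UMIs and the 4 largest and smallest ratios, plus the 10 rule genes and the 15 largest and smallest ratios overall; others named were chosen after their values were seen, and a few genes are not reported here. Members and lists were chosen with earlier results of these data known. Alternatives changed limits, gates, doublets, level, pseudocount and filter. Promoters came from RefSeq (GRCm38.p6). Reads of close paralogs (histone, globin, immunoglobulin and T cell receptor genes) may be split.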

Additional observations from a re-analysis of the deposited data

Results flagged for a closer look

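Barcodes above the limit of 10000 UMIs were outside all comparisons, and 832 barcodes were there. Of these, 15 passed the immune gate, and 10 of the 15 (66.7%, 38.4 to 88.2) also passed the cycle gate, against 9.12% within the limits. They were singled out because the cycle genes were detected in data that the comparisons did not use. The 10 cells had a median of 12418 UMIs; 7 were Cd3 cells, 1 a Cd79 cell and 2 had UMIs of both. The part of depth and of doublets in this share was not tested.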

How the results depend on the processing

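No paired analysis was possible because there was 1 library. 19 alternatives were tried, of which applying the gates after thinning and leaving out the *Jchain*-rich and *Camp*-rich cells were chosen after seeing the data, as were the ratios above without the richest cell of a list. Of 271 named genes 115 were past 2-fold. Of these, 51 were past it under every alternative except the filters of 100 and 5 UMIs per gene. Those filters were not run on single genes. Where a value moved, the cause was not tested.

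The share of cycling cells was 14.5% with a lower limit of 1500 UMIs, 25.5% with 3000 UMIs, 15.1% with at least 1 cycle UMI, 6.40% with at least 4, 6.63% with under 3 collagen UMIs and 4.36% with the gates after thinning. Cd3 cells made up 70.7% of cycling cells with at least 4 immune UMIs and 78.4% with thinned gates, and Cd79 cells 13.7% with thinned gates. The median depth of cycling cells was 5043.5 UMIs with the limit of 3000, 2965 with at least 1 cycle UMI and 2533 with under 3 collagen UMIs; that of non-cycling cells was 2371 and 4074.5 with the limits of 1500 and 3000, 1807 with at least 4 immune UMIs, 1419 with under 3 collagen UMIs and 1497 with thinned gates.

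Genes at least 2-fold higher numbered 173 with a pseudocount of 50 CPM and 168 with at least 100 UMIs per gene, against 393. Genes at least 2-fold lower, 261 as reported, numbered 432 with the limit of 3000 UMIs, 112 with at least 1 cycle UMI, 460 with under 3 collagen UMIs, 784 and 24 with pseudocounts of 1 and 50 CPM, 148 with at least 100 UMIs per gene and 538 with thinned gates. Higher genes of the cycle lists numbered 64 with at least 100 UMIs per gene, against 138.

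The SCAP and SREBP ratio was 1.08 with under 3 collagen UMIs. The lists here are over the whole immune gate, and no alternative gate was run within Cd3 or Cd79 cells. The naive list (0.658-fold as reported) was 0.729-fold with at least 1 cycle UMI, 0.897-fold with under 3 collagen UMIs, 0.732-fold as a mean of cells and 0.887-fold with thinned gates. The MHC class II list (0.419-fold as reported) was 0.522-fold with the limit of 3000 UMIs, 0.490-fold with at least 1 cycle UMI, 0.307-fold with at least 4 immune UMIs, 0.356-fold as a mean of cells and 0.386-fold with thinned gates.

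Over the alternatives in gates, cells and level, the endothelial list ranged from 0.267- to 0.820-fold and the smooth muscle, mesothelial and Schwann list from 0.159- to 0.879-fold, the macrophage and monocyte list from 0.526- to 0.863-fold and the mature B cell list from 0.348- to 1.89-fold.

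Some directions reversed. The erythroid list was 0.113-fold with thinned gates. Lists below 1 in the whole gate rose above it there. The activated and effector list went from 0.624- to 1.11-fold and the dendritic list from 0.639- to 1.45-fold. The type 2 lymphocyte list went from 0.782- to 1.22-fold, T cell receptor genes from 0.950- to 1.28-fold and *Cd4* and Cd8 from 0.981- to 1.15-fold. The B precursor list (1.06-fold) was 0.941-fold with the limit of 3000 UMIs and 0.924-fold with at least 4 immune UMIs. With at least 4 immune UMIs, under 3 collagen UMIs, without the *Jchain* and *Camp* cells and with thinned gates, in this order, the germinal centre and plasma cell list was 0.870-, 0.860-, 0.894- and 0.733-fold and the neutrophil list 0.127-, 0.0153-, 0.249- and 0.0119-fold. The log2 ratios were -0.19, -0.22, -0.15 and -0.067 for *Jchain*, -4.51, -4.75, -3.63 and -4.73 for *S100a9*, -1.83, -5.04, -1.09 and -4.93 for *S100a8*, and -2.06, -1.93, -0.29 and -2.67 for *Ngp*. Without the third of these they were -2.30, -2.27 and -2.94 for *Camp* and -0.85, -0.093 and -1.41 for *Ltf*. With thinned gates they were 0.0085 for *Fscn1*, -2.89 for *Hba-a1*, -2.40 for *Hbb-bt*, -0.46 for *Slc4a1*, -0.36 for *Alas2* (-0.023 with under 3 collagen UMIs) and 0.11 for *Acta2* (0.066 with at least 1 immune UMI).

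One pooled library limits every value: mouse, litter and library effects cannot be told apart from the cells' own. A gene under 30 UMIs was not measured, and the 33 cycling Cd79 cells are few. Cells were chosen by UMIs of the genes that also describe them, and a deeper cell passes more easily.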
